A study of Mus musculus with 12 samples.

Results

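The genes described here copy DNA or supply its building blocks. They were read in samples labelled as ventricle tissue of the heart, after coronary ligation with and without a ferroptosis inhibitor. They are the 10 genes Mcm2, Mcm3, Mcm4, Mcm5, Mcm6, Mcm7, Pcna, Rrm1, Rrm2 and Tyms, chosen by symbol out of 23660 genes in the deposited FPKM table (fragments corrected for gene length and depth by the authors). All 10 were matched by identifier to the 32623 genes of the deposited count table, and all 10 passed the filter on low counts that left 16910 genes to test. RNA sequencing covered 12 samples in 4 groups of 3, all from wild-type male C57BL/6J mice aged 6 to 8 weeks, per the labels. The Sham group had a sham operation, and the MI group (myocardial infarction) had the left anterior descending artery tied off for good. The Fer-1+MI group received ferrostatin-1 at 1 mg per kg per day, and the Lip-1+MI group liproxstatin-1 at 3 mg per kg per day, both from 24 h ahead of the same ligation. Both compounds trap lipid radicals and block ferroptosis, a cell death driven by iron and membrane lipid peroxidation. The sources used here do not give the time from ligation to tissue collection, nor whether Sham and MI received a vehicle. Since nothing in the labels states that replicates are separate animals, a p-value reflects the spread between samples, which may be technical.

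Before a cell copies its genome, the proteins Mcm2 to Mcm7 are loaded onto replication origins as a ring, the core of the helicase that later unwinds the double helix. Pcna forms the sliding clamp that holds the DNA polymerases on their template and also serves in repair. Rrm1 and Rrm2 encode the large and the small subunit of ribonucleotide reductase, which turns ribonucleotides into deoxyribonucleotides, and Tyms encodes thymidylate synthase, which makes the precursor of thymidine triphosphate. Transcripts of these genes usually rise as a cell moves from G1 into S phase, many of them under E2F transcription factors. In the adult heart most muscle cells have left the cycle, while fibroblasts, mural cells, endothelium and immune cells can still divide.

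Total counts lay between 45.5 and 60.8 M counts per sample, with 906 to 8100 raw counts behind each value of a member. All gene identifiers in both tables carry the Ensembl prefix of rat (ENSRNOG), although the labelled species is mouse. The sources used here do not name a build. Coordinates below, other than those of the mouse sequences shown, are those of the files and belong to that build. They place Mcm3 on chromosome 9 and Mcm5 on chromosome 19, where the mouse build GRCm38.p6 has them on chromosomes 1 and 8. Heart muscle markers ran from 23.9 to 38.5 FPKM for Ryr2 to 4470 to 5930 FPKM for Actc1 over the 12 samples. Myh6 of heart muscle lay at 936 to 1610 FPKM, Myh7 at 556 to 814 FPKM and Col1a1 of fibroblasts at 1590 to 2390 FPKM. Of 4 erythroid markers, Hba-a1 was at 5.73 to 16.9 FPKM and Hbb at 3.68 to 8.62 FPKM, and the other 2 reached 0.209 FPKM at most. Whether these levels and positions match the labelled tissue and species was not tested. Of 6 lymphocyte markers Cd3e was at 0 in all samples and Cd4 at 4.33 to 6.75 FPKM, and the other 4 reached 0.493 FPKM at most. Of 5 neutrophil markers S100a8 was at 0.837 to 3.25 FPKM, S100a9 at 0.542 FPKM at most and Mpo at 0.0211 FPKM at most. On the first principal component, with 30.9% of the variance, Sham samples stood apart from all ligated samples.

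The control region before the start of these genes is shown for 3 ring subunits that carry E2F letters and for Mcm2, which does not, because these subunits work in 1 complex and differ in those letters. RefSeq windows of the mouse build GRCm38.p6, from 250 bases before to 50 bases after the start, were found for 9 of the 10 genes (Mcm4 is named only). The letters searched on both strands were TTTCCCGC, TTTCGCGC, TTTGCCGC and TTTGGCGC, which overlap each other on opposite strands, and the box CCAAT. The E2F letters occurred in the windows of 4 of 9 members (Mcm3, Mcm5, Mcm6 and Mcm7), against 2.6% of 27025 mouse genes. Mcm7 has a second start with a window of its own, which held none, so its matches belong to the window shown. The CCAAT box occurred in 8 of 9, all but Tyms, against 41.1% of genes. Each line gives the 180 bases before the start, 5′ to 3′ on the gene's strand, with E2F letters in capitals on whichever strand they were read. Overlapping matches run together.
Mcm5, chr8:75109329-75109508, plus strand: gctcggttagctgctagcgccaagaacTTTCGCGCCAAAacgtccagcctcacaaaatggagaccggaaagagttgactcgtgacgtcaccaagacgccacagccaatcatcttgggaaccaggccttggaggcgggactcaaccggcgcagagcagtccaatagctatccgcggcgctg
Mcm6, chr1:128359706-128359885, minus strand: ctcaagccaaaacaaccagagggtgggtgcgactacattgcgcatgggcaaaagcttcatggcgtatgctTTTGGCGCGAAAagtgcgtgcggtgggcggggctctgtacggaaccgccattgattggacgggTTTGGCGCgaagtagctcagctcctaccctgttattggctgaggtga
Mcm7, chr5:138171884-138172063, minus strand: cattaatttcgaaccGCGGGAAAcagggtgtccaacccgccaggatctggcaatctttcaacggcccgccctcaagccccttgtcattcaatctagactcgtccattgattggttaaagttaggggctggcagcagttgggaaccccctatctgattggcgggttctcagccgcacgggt
Mcm2, chr6:88898781-88898960, minus strand: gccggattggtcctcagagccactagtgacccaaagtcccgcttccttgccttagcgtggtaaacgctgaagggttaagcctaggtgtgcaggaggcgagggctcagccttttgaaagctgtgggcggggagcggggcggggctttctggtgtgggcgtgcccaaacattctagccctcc
Counted from the start, with bases before it negative, the 2 overlapping matches of Mcm5 began at -153 and -149. Mcm6 held 3 matches, the farthest beginning at -110 and the nearest ending at -40. Mcm7 held 1 match from -165 to -158 and another at bases 17 to 24 after the start, and the 2 matches of Mcm3 lay after its start, at bases 20 to 27 and 39 to 46. These are matches of letters in a mouse reference, not measured binding, and were not read against the expression values.

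All 10 genes were expressed in every sample, and their levels per length kept much the same order in all 4 groups. The gene models carry rat identifiers while the labels say mouse. How well each model fits the reads may therefore enter the levels between genes, which was not tested. Pcna was highest, at 42.9 ± 2.4 FPKM (SD over the 12 samples), and did not overlap the next gene. Rrm1 followed at 25.7 ± 2.2 FPKM and Rrm2 at 21.8 ± 2.6 FPKM, with Rrm1 above Rrm2 in 12 of 12 samples. That order holds for the Rrm2 locus alone: a second model annotated as the same subunit, LOC100359539, may share its reads, and with both summed the ratio of Rrm1 to Rrm2 was below 1 in all 12 samples, from 0.768 to 0.889. Mcm7 came next, at 16.3 ± 1.7 FPKM. The other ring subunits and Tyms lay close together on the FPKM scale, from 13.2 ± 1.7 for Mcm4 through 12.6 ± 1.8 for Mcm2, 11.2 ± 1.5 for Mcm6, 11 ± 1 for Tyms and 9.66 ± 1.2 for Mcm3 to 8.68 ± 1.4 for Mcm5. Neighbours in this last stretch overlapped in their ranges, so their order is not fixed by these data. Mcm6 was above Tyms in 5 of 12 samples, for example.

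Ligation without a compound went with more transcript of 4 members, namely 2 ring subunits and both subunits of ribonucleotide reductase, and with less of 1. Mcm3, Mcm5, Rrm1 and Rrm2 rose 1.33-fold to 1.41-fold over Sham, and Mcm2 fell to 0.88-fold of its Sham level. The other 5 members did not pass the threshold of 0.05 on adjusted p in edgeR's quasi-likelihood test. Over all genes tested, 22.8% were called higher and 20.8% lower in this comparison, 43.6% in all, so 4 of 10 and 1 of 10 have to be read against a background in which many genes were called. The median log2 fold change was 0.13 over the 10 members and 0 over all genes.

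Mcm3, on chromosome 9 at 26914057 to 26932201 of the files' coordinates, stood at 28.8, 27.9 and 28.1 CPM in Sham (counts scaled to a common library size by TMM) and at 40.7, 39.1 and 39.4 CPM in MI. Mcm5, on chromosome 19 at 14523554 to 14561278, stood at 27.1, 32.8 and 29.4 CPM in Sham and at 40.1, 39.5 and 39.3 CPM in MI. Every MI sample was above every Sham sample for both subunits, and the MI samples lay within 2 CPM of each other. The log2 fold change was 0.49 ± 0.06 (SE, n = 3 per group) for Mcm3, with an adjusted p of 3.55e-06 in edgeR. It was 0.41 ± 0.07 for Mcm5, with an adjusted p of 0.000177.

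Rrm1, the large reductase subunit that holds the catalytic site, on chromosome 1 at 167538263 to 167562688, read 96.5, 100.7 and 97.8 CPM in Sham and 129, 137 and 128 CPM in MI. Rrm2, the small subunit that carries the radical, on chromosome 6 at 43884678 to 43889515, read 24, 27.3 and 26.6 CPM in Sham and 34.4, 37.7 and 34 CPM in MI. Neither gene's groups overlapped, and replicate 2 was the highest MI sample for both. The log2 fold change was 0.42 ± 0.05 for Rrm1 (edgeR adjusted p = 6.23e-07) and 0.45 ± 0.07 for Rrm2 (adjusted p = 4.21e-05). Rrm2 is uncertain as a locus, because reads could be split between it and LOC100359539, annotated as ribonucleotide reductase M2 polypeptide on chromosome 19. That model stood at 0.39 ± 0.07 on the log2 scale (adjusted p = 0.000152), and with both loci summed every call on Rrm2 was the same.

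Mcm2, the ring subunit that also binds histones, on chromosome 4 at 120825699 to 120840111, was the member that fell. It read 55.3, 51.2 and 52 CPM in Sham and 45.3, 47.5 and 46.7 CPM in MI, with no overlap and the highest value in Sham replicate 1. The log2 fold change was -0.18 ± 0.07 (edgeR adjusted p = 0.0457). This call stood close to the threshold and was lost when any 1 Sham, MI or Lip-1+MI sample was left out (-0.21 to -0.15), and with no filter on low counts (-0.18).

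The other 5 members had 95% intervals that reached 0 or came near it. Mcm4, on chromosome 11 at 89511191 to 89524892, read 58.7, 50.1 and 52.3 CPM in Sham and 49.9, 57.8 and 51.4 CPM in MI, and the groups overlapped throughout. Mcm6, on chromosome 13 at 45042882 to 45068077, read 36.3, 40.3 and 41.4 CPM in Sham and 41, 40.3 and 45.3 CPM in MI. Mcm7, on chromosome 12 at 19306607 to 19314016, read 46.8, 49.2 and 46.6 CPM in Sham and 53.6, 50.6 and 46.9 CPM in MI. For Mcm6 and Mcm7 as well, the ranges of the groups overlapped. The Mcm7 model contains the models of Mir93, Mir25 and Mir106b on the same strand, which held 0 to 11 counts each and were not tested. Pcna, on chromosome 3 at 124880698 to 124884570, lay between 54.9 and 56.4 CPM in Sham and between 57.4 and 63 CPM in MI. Tyms, on chromosome 9 at 121918947 to 121931564, lay between 18.3 and 20 CPM in Sham and between 20.1 and 22.2 CPM in MI. The groups of these last 2 genes did not overlap, but the gaps were narrow, with an adjusted p of 0.09 for Pcna and 0.2 for Tyms. In all, 6 members had every MI sample above every Sham sample and 1 had every MI sample below, against 27.1% and 26.7% of all genes.

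Scaling matters for comparisons with Sham. With counts scaled to library size only, the median of all genes moved by -0.17 on the log2 scale between MI and Sham, and Mcm6, Mcm7, Pcna and Tyms changed sign without being called. The 4 members called higher were called higher under every alternative fit.

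**Figure D1:**
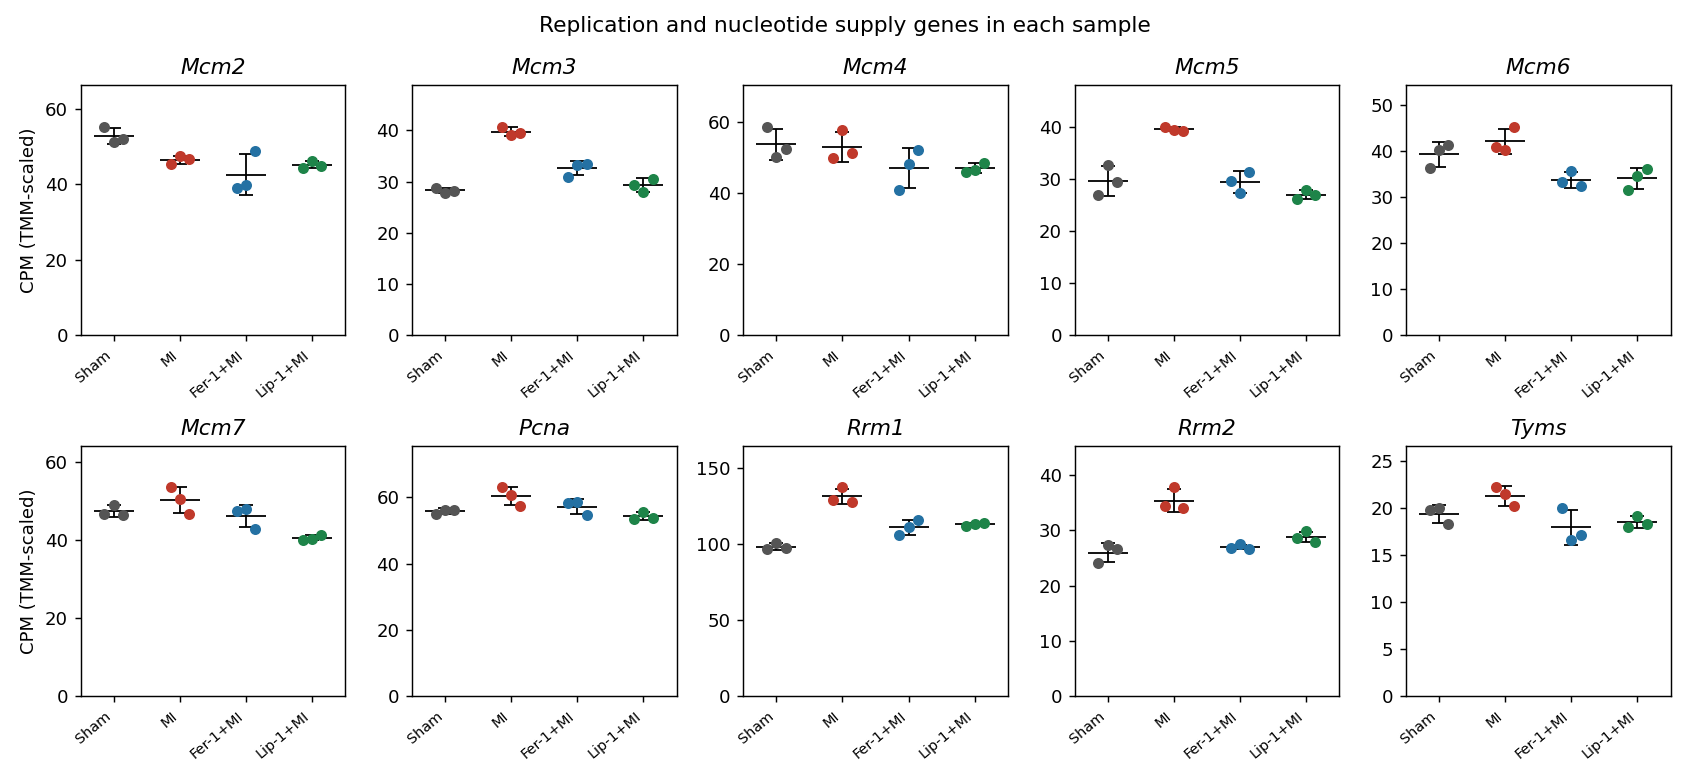
CPM after TMM scaling (linear axes from 0) of each of the 10 genes in each of the 12 samples, with points for samples and bars for the group mean and SD of 3 samples. Mcm3, Mcm5, Rrm1 and Rrm2 have all 3 MI samples above every Sham sample and above every sample of both compound groups, whereas Mcm2 is highest in Sham.

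In ligated hearts given ferrostatin-1, 5 members fell against ligation alone and none rose. Ring subunits Mcm3, Mcm5 and Mcm6 and both reductase subunits fell, to between 0.744-fold (Mcm5) and 0.845-fold (Rrm1) of the MI level. Of all genes tested, 3.07% were called lower and 2.29% higher, 5.36% in all, and the median log2 fold change was -0.25 over the members and 0 over all genes. For 6 members every Fer-1+MI sample was below every MI sample, a pattern shown by 11.2% of all genes, and for none was every one above, against 9.79%.

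Mcm5 had the largest change of the 10, at 29.8, 27.3 and 31.3 CPM with ferrostatin-1, all below its lowest MI sample. Its log2 fold change was -0.43 ± 0.07 (edgeR adjusted p = 0.00165). Rrm2 read 26.8, 27.5 and 26.7 CPM and overlapped Sham, with -0.39 ± 0.07 on the log2 scale (adjusted p = 0.0019). Mcm6 read 33.3, 35.7 and 32.4 CPM, below every MI and every Sham sample. Its log2 fold change was -0.32 ± 0.07 (adjusted p = 0.0135), and this call was lost without MI replicate 3, the highest MI sample (-0.26), or without Fer-1+MI replicate 3 (-0.29). Mcm3 read 31, 33.3 and 33.5 CPM and Rrm1 read 106, 111 and 116 CPM. Both lay between the Sham and the MI samples. Their log2 fold changes were -0.29 ± 0.06 (adjusted p = 0.00891) and -0.24 ± 0.05 (adjusted p = 0.00311).

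The remaining members did not pass. Tyms read 20, 16.6 and 17.1 CPM with ferrostatin-1, of which replicate 1 stood apart, just under the lowest MI sample at 20.1 CPM. Its log2 fold change of -0.25 ± 0.08 had an adjusted p of 0.0986, and Tyms was called lower when that replicate was left out, at -0.34. Mcm2 read 39, 39.7 and 48.8 CPM and Mcm4 read 40.9, 48.2 and 52 CPM, the widest spread of any group for either gene, with replicate 3 the highest both times. Mcm2 was called lower without replicate 3, at -0.24 with an adjusted p of 0.0346. Mcm7 and Pcna had log2 fold changes of -0.13 ± 0.06 and -0.08 ± 0.05 and overlapped MI.

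With liproxstatin-1 the pattern against ligation alone was of similar size, with 6 members called lower and none higher. The 5 members above fell here too, and Mcm7 was added to them. Levels came to between 0.683-fold (Mcm5) and 0.86-fold (Rrm1) of those in MI. Of all genes, 3.05% were called lower and 3.05% higher, 6.1% in all, and the median log2 fold change was -0.26 over the members and -0.01 over all genes. Every Lip-1+MI sample was below every MI sample for 9 members, all but Mcm2, against 12.1% of all genes, and for none was every one above, against 11.5%. Both compound groups were set against the same 3 MI samples, so these comparisons are not independent of each other.

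Mcm5 read 26.3, 28 and 26.9 CPM with liproxstatin-1, a log2 fold change of -0.55 ± 0.07 (edgeR adjusted p = 0.000148). Mcm3 read 29.3, 28 and 30.6 CPM and overlapped Sham, with -0.44 ± 0.06 (adjusted p = 0.000209). Mcm7 read 40.2, 40.4 and 41.5 CPM, below all other samples of the series, with -0.31 ± 0.06 (adjusted p = 0.00487). Mcm5 and Mcm3 had the largest decreases of the 10 members, while Mcm2 of the same ring had the smallest. Mcm6 read 31.6, 34.6 and 36.2 CPM, with -0.31 ± 0.07 (adjusted p = 0.0156), a call lost without MI replicate 3 or without Lip-1+MI replicate 1 (-0.25 each time).

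Rrm1 read 112, 113 and 114 CPM, a narrow group that lay between Sham and MI. Its log2 fold change was -0.22 ± 0.05 (edgeR adjusted p = 0.00633). Rrm2 read 28.7, 29.8 and 27.9 CPM, above every Sham sample and below every MI sample. Its log2 fold change was -0.30 ± 0.07 (adjusted p = 0.0132), a call lost without MI replicate 2 (-0.25) or without Lip-1+MI replicate 3 (-0.27). Pcna, at 53.4, 55.7 and 53.9 CPM, and Tyms, at 18, 19.2 and 18.3 CPM, stood below all MI samples without passing, with adjusted p of 0.101 and 0.182. Mcm4 read 45.8, 46.5 and 48.5 CPM (adjusted p = 0.248). Mcm2 read 44.4, 46.2 and 45 CPM and overlapped MI, with a log2 fold change of -0.04 ± 0.07.

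**Figure D2:**
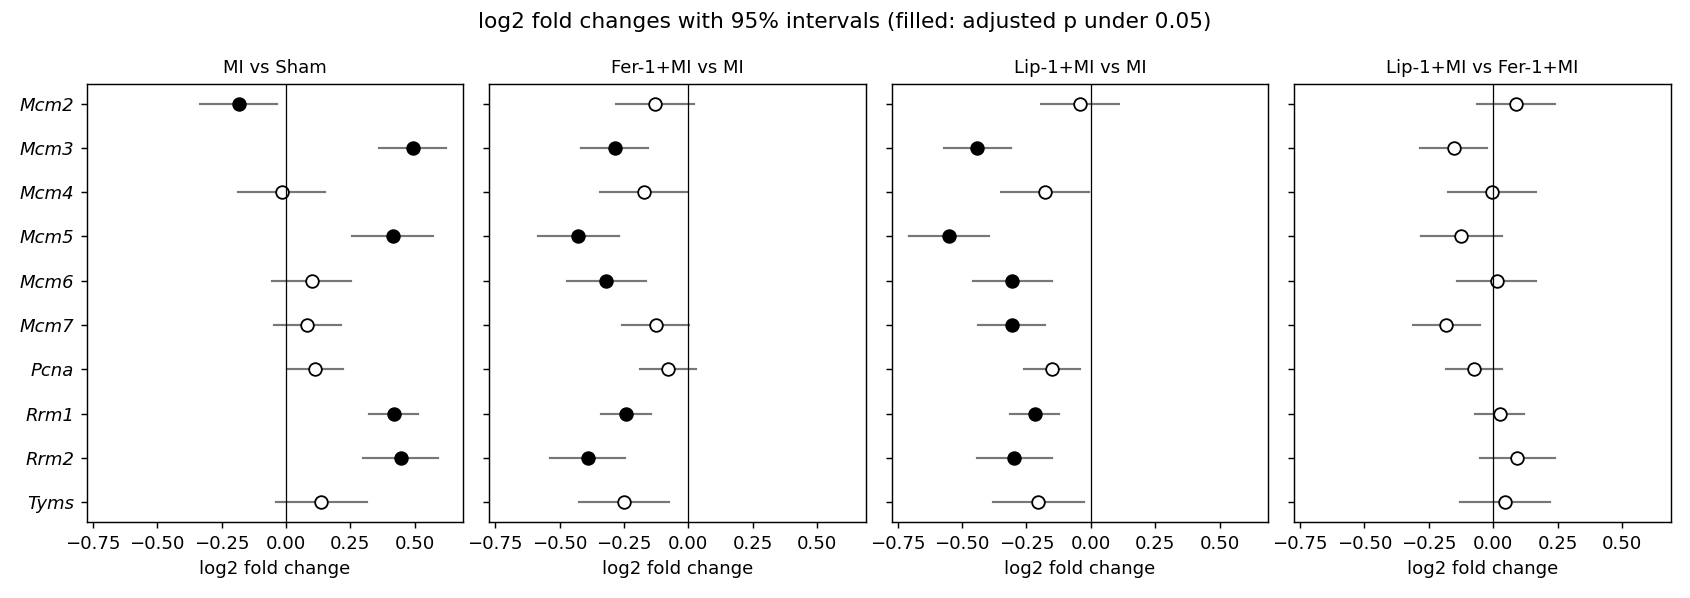
Log2 fold changes of the 10 genes in 4 comparisons (linear log2 axis), with lines for 95% intervals and filled points where edgeR's adjusted p was under 0.05. MI against Sham has 4 filled points to the right and Mcm2 to the left, each compound against MI has filled points to the left only (5 and 6), and the compounds against each other have none.

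Set beside Sham instead, the compound groups kept Rrm1 high and held part of the helicase below Sham. Rrm1 stood at 0.18 ± 0.05 with ferrostatin-1 (edgeR adjusted p = 0.00562) and at 0.20 ± 0.05 with liproxstatin-1 (adjusted p = 0.00184), with no overlap with Sham in either group. Mcm3 was called higher with ferrostatin-1, at 0.21 (adjusted p = 0.0144), and stood at 0.05 with liproxstatin-1 (adjusted p = 0.555). Mcm2 was called lower with both compounds, at -0.31 (adjusted p = 0.00212) and -0.23 (adjusted p = 0.0181), and so was Mcm6, at -0.22 (adjusted p = 0.0252) and -0.21 (adjusted p = 0.0326). The calls on Mcm6 were lost in fits without Sham replicate 2 or 3, among others, at -0.15 to -0.21, and the call on Mcm2 with liproxstatin-1 without Sham replicate 1 or without Lip-1+MI replicate 1 or 3, at -0.19 to -0.22. Mcm7 was called lower with liproxstatin-1, at -0.22 (adjusted p = 0.00745). Mcm5, which had risen with ligation, stood at -0.01 with ferrostatin-1, with a 95% interval from -0.17 to 0.144. The counts called were 2 higher and 2 lower with ferrostatin-1, where all genes had 19.6% and 16.7%, 36.3% in all. With liproxstatin-1 they were 1 higher and 3 lower, where all genes had 20.8% and 18%, 38.8% in all. Samples did not overlap Sham for 2 members above and 2 below with ferrostatin-1 (24% and 23.6% of all genes), and for 2 above and 4 below with liproxstatin-1 (25.7% and 25.6%). These counts depend on the scaling: with library size only, none was called higher in either group, and 5 members with ferrostatin-1 and 7 with liproxstatin-1 were called lower.

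No member was called different between the compounds, which were given at different doses. The largest log2 differences of Lip-1+MI from Fer-1+MI were -0.18 for Mcm7, with a 95% interval from -0.311 to -0.0514 (edgeR adjusted p = 0.147), and -0.15 for Mcm3, from -0.284 to -0.0234 (adjusted p = 0.243). Both genes had every Lip-1+MI sample below every Fer-1+MI sample, and Rrm2 had every one above, against 8.91% and 9.88% of all genes. At an unadjusted p under 0.05, 2 members passed, and DESeq2 also called 0. Of all genes, 3.15% were called different between the compounds, 1.74% higher and 1.41% lower with liproxstatin-1. Over all 4 groups in 1 test, 7 members passed at an adjusted p from 6.16e-06 (Rrm1) to 0.00903 (Mcm2), where 44.3% of all genes did, and Tyms (0.0814), Mcm4 (0.0832) and Pcna (0.102) did not. A missed threshold does not show that the compounds act alike on these genes.

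The 6 ring subunits enter 1 complex in equal number, yet their transcripts were uneven per length, and least so in MI. The limit from the rat identifiers applies to these levels between genes as well. Mcm7 was the highest subunit on the FPKM scale in 12 of 12 samples, and Mcm5 the lowest in all but Sham replicate 2, where it was Mcm3. The ratio of the highest to the lowest subunit in a sample was 2.1 ± 0.097 in Sham and 1.62 ± 0.091 in MI (mean ± SD, n = 3). It was 2 ± 0.25 with ferrostatin-1 and 1.92 ± 0.07 with liproxstatin-1. The MI samples, from 1.52 to 1.7, lay below every sample of the other groups. As Mcm2 fell and Mcm5 rose, their FPKM ratio went from 1.98, 1.52 and 1.72 in Sham to 1.1, 1.17 and 1.15 in MI. With ferrostatin-1 it was 1.27, 1.41 and 1.51, and with liproxstatin-1 1.64, 1.61 and 1.62. This pair was chosen after its values were seen, so the ratio is a description with no test. Summed over the subunits, the FPKM were 79 ± 0.42 in Sham and 77 ± 1.7 in MI, against 66.8 ± 3.7 with ferrostatin-1 and 63.5 ± 1.8 with liproxstatin-1. FPKM carry no TMM scaling, and on that scale the sum was lowest with a compound and no higher in MI than in Sham. The ratio of Rrm1 to Rrm2 varied little, from 1.13 ± 0.021 in MI to 1.25 ± 0.068 with ferrostatin-1, for the Rrm2 locus alone. With LOC100359539 added it turned to below 1, from 0.784 ± 0.011 in MI to 0.855 ± 0.03 with ferrostatin-1.

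**Figure D3:**
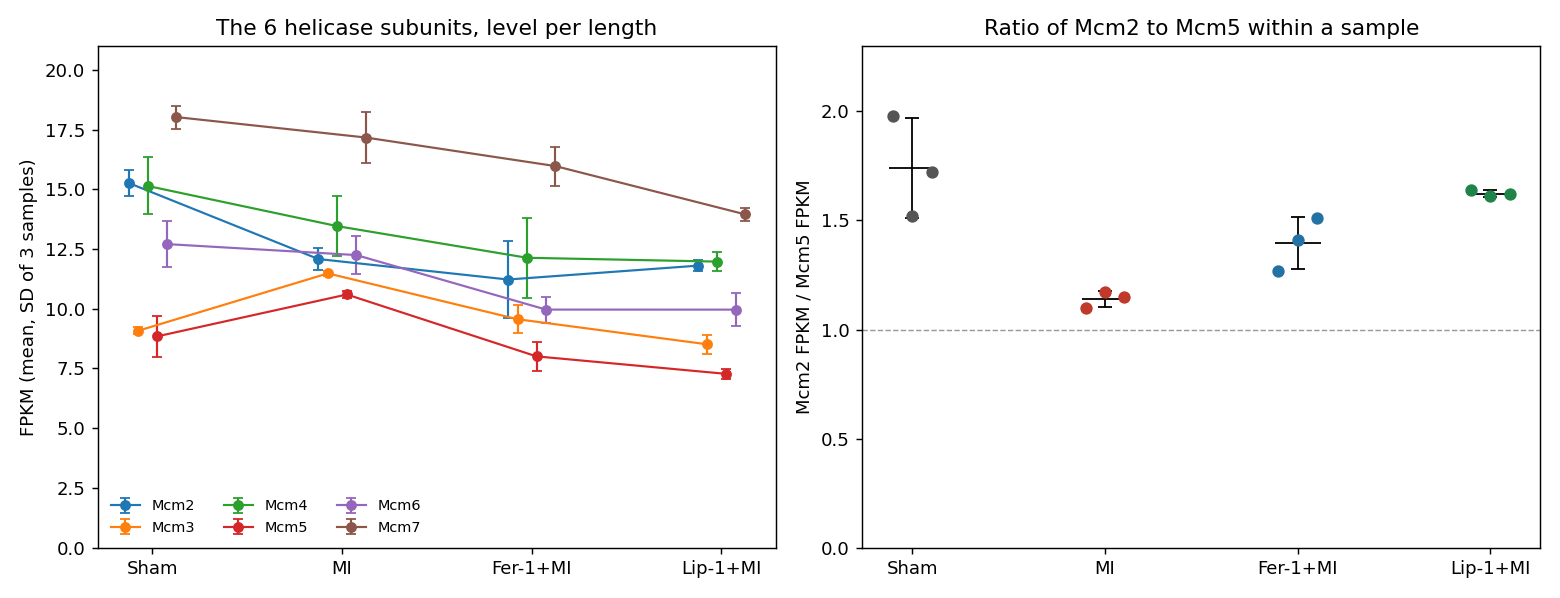
Left, FPKM of the 6 helicase subunits (mean and SD of 3 samples, lines join the same gene across groups); right, the ratio of Mcm2 to Mcm5 FPKM in each sample with group mean and SD. The subunits lie closest together in MI, where the ratio is 1.1 to 1.17, against 1.52 to 1.98 in Sham.

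Sample by sample, the members stood above their own mean over the 12 samples mostly in MI. On the log2 CPM scale, 8, 10 and 10 of the 10 genes were above their mean in the 3 MI samples and 4, 6 and 4 in the Sham samples. With ferrostatin-1 the number was 3, 3 and 5, and with liproxstatin-1 0, 2 and 1. Every MI sample had at least 8 members above the mean, and no other sample had more than 6. Those means include the MI samples, and some calls on single members were lost when 1 library was left out. The group medians of the 10 centred profiles were -0.02 in Sham, 0.17 in MI, -0.05 with ferrostatin-1 and -0.08 with liproxstatin-1. Ranked by root mean square difference from that median profile over the 12 samples, the nearest of 13848 other genes were Guk1 (0.0532), Crtapl1 (0.0585), Gpc4 (0.0596), Dnmt1 (0.0597), Grk6 (0.06), Twf2 (0.0607), Sf1 (0.0643) and Adarb1 (0.0648). Of these 8 genes, only Dnmt1, which encodes the maintenance DNA methyltransferase, is on a gene list used here. The median profile itself varied little, so this measure also places genes of small change near it. A shared function of the nearest genes was not tested. The members themselves lay between 0.0664 (Pcna) and 0.16 (Mcm2) from their own median, so Mcm2 was the least typical.

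Other genes of the replication machinery went in both directions after ligation, and their counts are to be read against the 22.8% of all genes called higher and the 20.8% called lower. In MI against Sham, 5 of 12 replicative polymerase genes rose and none fell, among them Pola2 at 0.51 (edgeR adjusted p = 4.5e-05), a subunit of the polymerase that primes each new strand. Of 22 genes of origin licensing and firing 4 rose and 3 fell. Cdt1, which loads the Mcm ring, stood at 0.52 (adjusted p = 0.000983), and Orc4, of the complex that marks origins, at -0.44 (adjusted p = 0.000364). Of 16 genes of clamp loading and lagging strand synthesis 4 rose and 2 fell, with Rfc4, of the loader that puts the Pcna clamp on DNA, at 0.48 (adjusted p = 0.00302). Of 15 other genes of deoxynucleotide and thymidylate supply 6 rose and 4 fell. Here Tk1, the thymidine kinase of dividing cells, rose by 0.50 (adjusted p = 0.000177), and Shmt2, which feeds one-carbon units to mitochondrial folate, by 0.58 (adjusted p = 2.35e-08). Rrm2b, Tk2 and Dguok, which supply deoxynucleotides outside S phase and to mitochondria, fell, with log2 fold changes of -0.57, -0.47 and -0.47 and adjusted p of 0.00645, 0.00605 and 0.00663. The medians of these 4 lists lay between 0.03 and 0.17.

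Against MI, the medians of the same 4 lists were below 0 with each compound, with few genes called. All genes were called lower in 3.07% and higher in 2.29% with ferrostatin-1, and in 3.05% and 3.05% with liproxstatin-1. With ferrostatin-1, 1 of 22 licensing genes, 2 of 12 polymerase genes, 1 of 16 clamp and lagging strand genes and 4 of 15 supply genes fell, and 1 supply gene rose. The list medians were -0.20, -0.15, -0.17 and -0.11. Fen1, the nuclease that trims Okazaki fragments with Pcna, stood at -0.46 (edgeR adjusted p = 0.00129), and Dut, which keeps uracil out of DNA and yields the substrate of Tyms, at -0.36 (adjusted p = 0.0108). The supply gene that rose was Samhd1, which breaks deoxynucleotides down, at 0.49 (adjusted p = 0.0249). With liproxstatin-1, 3, 1, 2 and 4 genes of the lists fell and none rose, with medians of -0.26, -0.20, -0.20 and -0.09. Mcm10 and Cdc45, which turn the loaded ring into an active helicase, stood at -0.56 (adjusted p = 0.00465) and -0.53 (adjusted p = 0.0071). Tk1 stood at -0.50 (adjusted p = 0.00208), Dut at -0.40 (adjusted p = 0.00422) and Fen1 at -0.39 (adjusted p = 0.00482). In the pathway column of the files, 7 members belong to DNA replication and 3 to pyrimidine metabolism. Over all genes the median log2 fold change against MI was 0 with ferrostatin-1 and -0.01 with liproxstatin-1. Genes below and above 0 were thus near even, as read from these rounded medians and not from a count. Of the other 29 genes tested in the DNA replication pathway, 27 had a log2 fold change below 0 with ferrostatin-1 and 21 with liproxstatin-1, and 3 and 2 passed. Of the other 48 genes of pyrimidine metabolism, 28 were below 0 with each compound, not far from that even split. There 3 were called higher and 5 lower with ferrostatin-1 (median -0.02), and 1 higher and 3 lower with liproxstatin-1 (median -0.07).

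Mitosis genes had larger medians than the members, a difference that was not tested. Counts called in MI against Sham stand beside 22.8% of all genes called higher and 20.8% called lower. For the compounds against MI, 3.07% of all genes were called lower with ferrostatin-1 and 3.05% with liproxstatin-1. Of 19 mitosis genes, 17 rose in MI against Sham with a median of 0.46, and 11 fell with ferrostatin-1 and 16 with liproxstatin-1, with medians of -0.32 and -0.45. Mki67, a protein of cycling cells, went from 96.1 ± 4.1 CPM in Sham to 127 ± 5.1 CPM in MI. Chromatin replication genes had 2 of 9 lower with each compound, in both cases Dnmt1 (-0.21 and -0.27) and its partner Uhrf1 (-0.34 and -0.39), with adjusted p from 0.00103 to 0.0218. The E2F and G1/S list was mixed. In MI, 11 of 29 rose and 4 fell, with the inhibitor Cdkn1a at 0.93 (edgeR adjusted p = 6.92e-05) and the pocket protein Rbl2 at -0.94 (adjusted p = 8.87e-09). Ccnd1 and Ccnd3, D-type cyclins of early G1, fell with both compounds, Ccnd1 by 0.38 and 0.29 on the log2 scale and Ccnd3 by 0.25 and 0.16. The medians of that list against MI were -0.05 and -0.10.

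**Figure D4:**
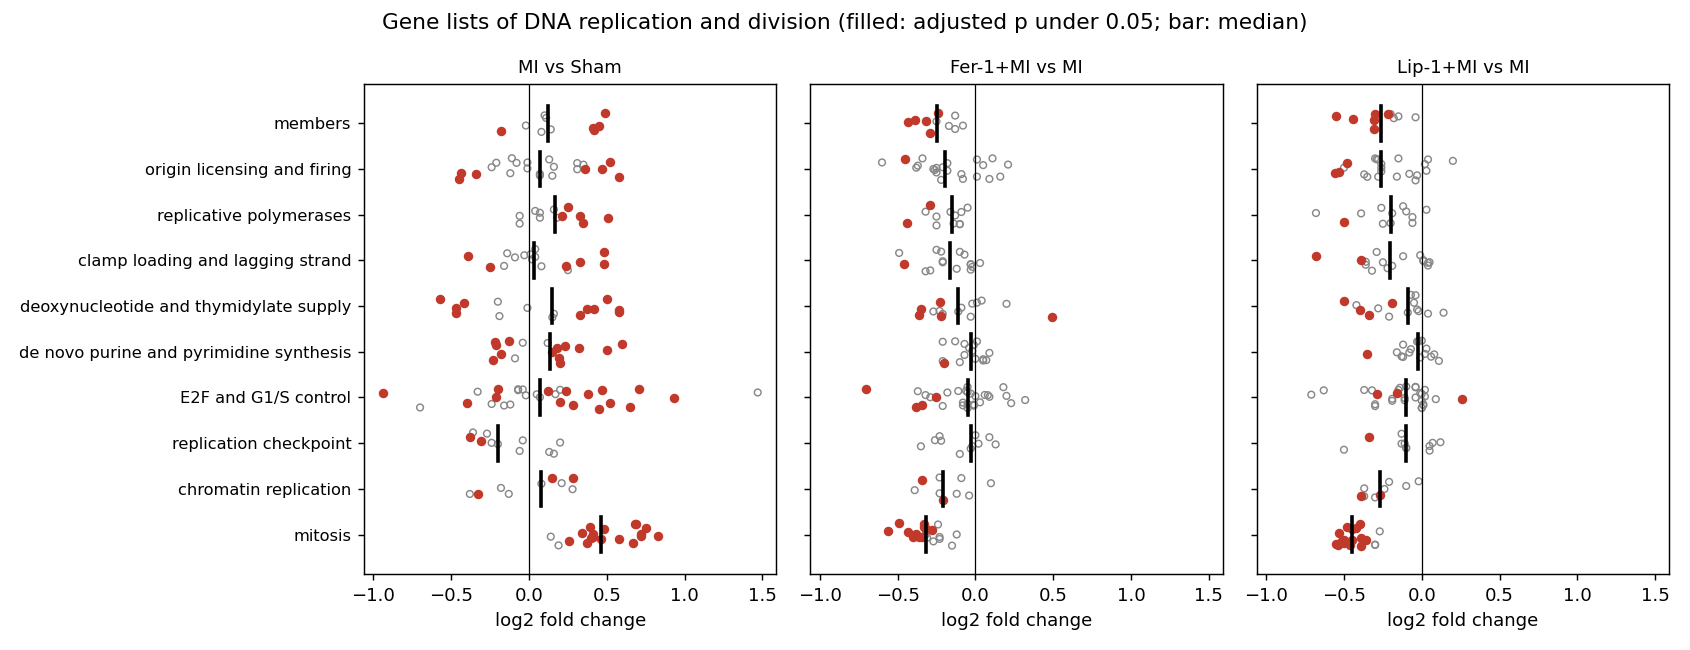
Log2 fold changes (linear log2 axis) of the 10 members and of 9 gene lists in 3 comparisons, with filled points for edgeR's adjusted p under 0.05 and a bar for the list median. All lists but the replication checkpoint have medians above 0 in MI against Sham and all have medians below 0 with each compound, with the largest medians in the mitosis list, where 17 of 19 are filled in MI.

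Among markers of fibroblasts, mural cells, the epicardium and macrophages, more were called higher than lower in MI against Sham, as among the members. Endothelial markers had fewer called higher than lower. In bulk tissue, fewer cells of a type and less RNA per cell cannot be told apart. The marker counts in MI stand beside 22.8% of all genes called higher and 20.8% called lower. Against MI, 3.07% of all genes were called lower and 2.29% higher with ferrostatin-1, and 3.05% lower and 3.05% higher with liproxstatin-1. Of 9 fibroblast markers 5 rose and 2 fell in MI, and their summed level was 15500 to 16100 CPM in Sham and 21800 to 24000 in MI, against 19200 to 20500 with ferrostatin-1 and 18400 in every sample with liproxstatin-1. Of 8 mural cell markers 7 rose in MI, and their sum was 4710 to 5140 CPM in Sham and 7100 to 7480 in MI, against 5680 to 6150 with ferrostatin-1 and 6880 to 7770 with liproxstatin-1, which overlapped MI. Des and Acta2 dominated this sum, at means of 3200 and 2080 CPM in MI and 3530 and 2120 CPM with liproxstatin-1. Tagln, the 1 mural marker called lower with liproxstatin-1, stood at -0.51 (edgeR adjusted p = 2.94e-05). Col1a1 dominated the fibroblast sum, at a mean of 10000 CPM in Sham and 15700 CPM in MI. With ferrostatin-1 it stood at 12900 CPM and with liproxstatin-1 at 11800 CPM. The fibroblast marker called higher against MI was Dcn, at 0.51 and 0.68 on the log2 scale. The list medians against MI were -0.10 and 0.05, so the sum does not stand for all of these markers. Of 7 epicardial markers 6 rose in MI, and their sum was 130 to 138 CPM in Sham and 198 to 213 in MI, against 172 to 176 with ferrostatin-1 and 181 to 183 with liproxstatin-1. Among 10 markers of macrophages and monocytes, 6 rose and 1 fell in MI, with a sum of 883 to 962 CPM in Sham, 960 to 1100 in MI, 989 to 997 with ferrostatin-1 and 1000 to 1040 with liproxstatin-1. Against MI, fibroblast markers had 2 and 3 members lower with ferrostatin-1 and liproxstatin-1 and 1 higher each, mural markers 3 and 1 lower, epicardial markers 3 and 2 lower, and macrophage markers 1 lower each. Of 7 endothelial markers 1 rose and 2 fell in MI, and against MI 1 was higher with ferrostatin-1 and 1 lower with liproxstatin-1. Their sum was 249 to 256 CPM in Sham and 233 to 259 in MI, against 271 to 287 with ferrostatin-1, the highest group, and 201 to 236 with liproxstatin-1. Of 10 heart muscle markers 1 rose and 3 fell in MI. The part of these cell types in the values of the members was not tested.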

How the data were processed

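RNA from 12 ventricle samples was made into stranded poly(A) libraries, per the labels' protocols. Per the submitters' processing notes, the authors' tools include HISAT2 2.2.1, StringTie 2.1.6, cutadapt 1.9 and FastQC, along with edgeR and DESeq2, with no order given. The deposited counts are whole numbers per gene, not normalised, and FPKM as deposited correct for gene length and depth. The sources used here do not say if the strand was used in counting.

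Here, genes were filtered with filterByExpr (minimum count 10, minimum total 15), scaled by TMM and tested with robust quasi-likelihood F tests in edgeR 4.0.16 under R 4.3.3. A single fit held all 12 samples, with group its only term (8 residual degrees of freedom, common biological coefficient of variation 9.99%), and p-values were adjusted by Benjamini-Hochberg over 16910 genes in each of 6 contrasts. Intervals and counts cover these libraries, and 3 counts correspond to at most 0.0663 CPM. FPKM was used for levels between genes and, with limma 3.58.1, as an alternative; DESeq2 1.42.0, other scalings, no filter, a replicate block and leaving out each sample were others. Besides the members, up to 3 genes per list, contrast and direction are named by smallest p, and the 8 genes nearest to the members' median profile. The members and lists were chosen with earlier results of these data known. Dna2, Adss2, E2f1, Cdkn2d, Chek1 and Ccnb2 were not analysed here.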

Additional observations from a re-analysis of the deposited data

How the results depend on the processing

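The 4 members called higher in MI against Sham were called higher in every alternative fit (4 to 5 when 1 sample was left out). Mcm2, the 1 called lower, was lost with no filter on low counts (0 called) and in 9 of the 12 fits that left out 1 sample (0 to 1 called). Against MI, ferrostatin-1 had 5 members lower in all but 1 of the other fits on 12 samples or on the 2 groups alone. With limma on log2(FPKM + 0.1) and no filter, which tests 22553 genes, the count was 3, and liproxstatin-1 had 4 in place of 6. Leaving out 1 sample gave 4 to 6 with ferrostatin-1 and 5 to 6 with liproxstatin-1. No fit called a member different between the compounds.

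Comparisons with Sham depended on the scaling, since library size alone moved the median of all genes by -0.17 (MI), -0.16 (ferrostatin-1) and -0.19 (liproxstatin-1). With library size only and in the 3 limma fits on FPKM, members called against Sham were 0 higher and 5 lower with ferrostatin-1, and 0 higher and 7 lower with liproxstatin-1. Leaving out 1 sample gave 1 to 2 and 1 to 4 lower. Of members not called, signs changed in MI against Sham with library size only for Mcm6 (-0.06), Mcm7 (-0.08), Pcna (-0.05) and Tyms (-0.02). In the limma fits these were -0.05, -0.07, -0.04 and -0.02. With ferrostatin-1 against Sham, Pcna was at -0.11 and Rrm2 at -0.09 with library size only, and at -0.1 and -0.07 with limma. With liproxstatin-1 against Sham, Mcm3 was at -0.12 with library size only and at -0.09 or, with a pseudocount of 1, -0.08 with limma, and Rrm2 was at -0.02 with library size only. Between the compounds Mcm6 was at -0.01 with library size only and rounded to 0 with limma. Leaving out 1 sample changed the sign of Mcm4 in MI against Sham (-0.08 to 0.05), of Mcm5 (-0.07 to 0.06) and Mcm7 (-0.07 to 0.01) with ferrostatin-1 against Sham, and, between the compounds, of Mcm4 (-0.09 to 0.07), Mcm6 (-0.03 to 0.07), Rrm1 (-0.01 to 0.06) and Tyms (-0.01 to 0.13).

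Deviations of same-numbered samples correlated weakly, from -0.02 to 0.09, with 0 of 18 pairs over 0.1. Those between a compound group and MI were all positive, from 0.02 to 0.09, and 7 of 12 samples correlated best with their own number. These values do not settle whether the numbers pair the samples. With the replicate number as a block, the counts of members called were the same in all 6 contrasts, and 1152 genes were called with ferrostatin-1 and 1272 with liproxstatin-1 against MI, where the fit without it called 907 and 1031. Over all genes, counts against MI moved by more than 1.5 times to 550 with ferrostatin-1 when fitted on those 2 groups alone. With limma on FPKM and no filter they were 577 and 605. Leaving out 1 sample gave 569 to 1071 and 661 to 1134. Between the compounds the count of 533 became 320, 348 and 249 with limma and 304 to 552 with 1 sample left out. For single members, the other fits kept direction and call in 461 cases, changed the sign in 33, lost a call in 17 and gained one in 29, and with 1 sample left out these numbers were 674, 14, 26 and 6. No member came near the floor of 3 counts, and every error rests on 3 samples per group. The causes of the changed calls were not tested.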

Other observations

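De novo nucleotide synthesis, upstream of ribonucleotide reductase, went in both directions in MI against Sham, with 8 of 16 genes higher and 5 lower, and within the purine and the pyrimidine branch alike. Of all genes, 22.8% were called higher and 20.8% lower in that comparison. Impdh1, the first step toward guanine nucleotides, rose by 0.50 on the log2 scale (edgeR adjusted p = 2.28e-07), Gmps, the next step, by 0.32 (adjusted p = 0.000164) and Dhodh, the mitochondrial step of pyrimidine synthesis, by 0.60 (adjusted p = 8.06e-05). Cad, which starts pyrimidine synthesis, stood at -0.22 (adjusted p = 0.00173) and Pfas, of the purine branch, at -0.23 (adjusted p = 0.00716). Against MI, 1 gene of the 16 fell with each compound, Ctps1 at -0.20 with ferrostatin-1 and Impdh1 at -0.35 with liproxstatin-1. Of all genes, 3.07% were called lower with ferrostatin-1 and 3.05% with liproxstatin-1. Impdh1 was also lower with liproxstatin-1 than with ferrostatin-1, at -0.22 (adjusted p = 0.0184), and the doses differed.

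Of the 11 genes of the replication checkpoint, none was called higher in MI against Sham and 2 were called lower, where 22.8% and 20.8% of all genes were. The 2 were Rad9a at -0.38 (edgeR adjusted p = 0.00509) and Hus1 at -0.31 (adjusted p = 0.00761), both of the clamp that signals stalled forks. The list median was -0.20, against 0.13 for the members, a difference that was not tested.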
